A study of Mus musculus with 4 samples.

Results

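The chemokine ligand genes of the mouse lung were described in 4 RNA sequencing libraries. Members were all genes of the deposited table named Ccl or Cxcl with a number, together with Cx3cl1, Xcl1 and Pf4. This gave 40 of 21931 genes, of which 24 are CC ligands, 14 are CXC ligands (Pf4 among them) and 2 are Cx3cl1 and Xcl1.

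Chemokines are small secreted proteins that guide leukocytes along gradients by binding G protein-coupled receptors, and they are classed by the spacing of their first cysteines (CC, CXC, CX3C and C). Homeostatic members are made constantly and position lymphocytes and progenitors in tissue, while inflammatory members are induced by cytokines, often through NF-kappaB, and bring in neutrophils, monocytes or eosinophils. In the lung they are made by alveolar and airway epithelium, macrophages, dendritic cells, fibroblasts and lymphatic vessels.

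All mice were untreated C57BL6 animals, and their lungs were taken at 2 months of age. There were 2 Dnah9 knockout libraries, 1 library of genotype Hez (an abbreviation the labels leave unexplained) and 1 wild type library. Dnah9 encodes an outer dynein arm heavy chain of motile cilia, and the series asks which genes differ when it is knocked out. The sources used here do not give the deleted part of Dnah9 or say whether libraries came from separate or pooled mice. The p-values therefore measure the spread between these libraries, which may be technical. In the comparisons with wild type or Hez alone, that spread comes from the knockout pair only, moderated over all genes. Where wild type and Hez are taken as 1 group, the spread also includes the difference between these genotypes.

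Total reads per library ranged from 15860478 to 16553480. Dnah9 had 240 and 254 reads in the knockout libraries, 420 in Hez and 917 in wild type. Sftpc and Scgb1a1, which mark alveolar type 2 and club cells, stood at 12164 to 13872 and at 12084 to 16729 CPM, where CPM is the read count per 1e6 reads of the TMM-scaled library total. Knockout library 2 stood apart in some blood cell markers. The summed level of 6 neutrophil markers was 292 and 81.7 CPM in knockout libraries 1 and 2, 165 in Hez and 195 in wild type. Chemokine results that touch these cells are given below for each library. In bulk tissue, fewer cells of a type and less RNA per cell cannot be told apart.

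Cxcl15, also called lungkine, a neutrophil-attracting CXC chemokine of lung epithelium in mice, was by far the most abundant member. On the FPKM scale, which divides the read count by the library total and the gene length, it stood at 1055 and 1050 in the knockout libraries, 884 in Hez and 881 in wild type. Only 19 of all 21931 genes had a higher mean FPKM. The family took 0.318% and 0.325% of all reads in the knockout libraries, 0.279% in Hez and 0.279% in wild type (95% exact binomial intervals 0.315% to 0.320% and 0.323% to 0.328% in knockout, 0.276% to 0.281% in Hez and 0.277% to 0.282% in wild type). Cxcl15 alone made up 70.6% and 68.7% of the family's reads in the knockout libraries, 67.5% in Hez and 67.1% in wild type. Intervals here and below cover counting error only.

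Below Cxcl15, 8 further members had a mean of 10 FPKM or more. Ccl6, Cxcl14, Ccl21a, Cxcl12 and Cxcl17 formed a middle tier between 33.2 and 98.2 FPKM. The first 3 overlapped over the libraries: Ccl6 spanned 61.7 to 98.2 FPKM, Cxcl14 spanned 62.0 to 73.8 and Ccl21a spanned 53.3 to 75.6. Cxcl12 lay below these at 40.3 to 51.0 FPKM and within the range of Cxcl17, which was 33.2 to 54.3. Pf4, Cxcl16 and Cx3cl1 followed at 16.4 to 31.4, 12.8 to 14.6 and 12.1 to 13.9 FPKM. The remaining members were low, with 18 below a mean of 1 FPKM, among them the inflammatory neutrophil attractants Cxcl1, Cxcl2, Cxcl3 and Cxcl5 and the interferon-induced Cxcl9, Cxcl10 and Cxcl11.

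**Figure D1:**
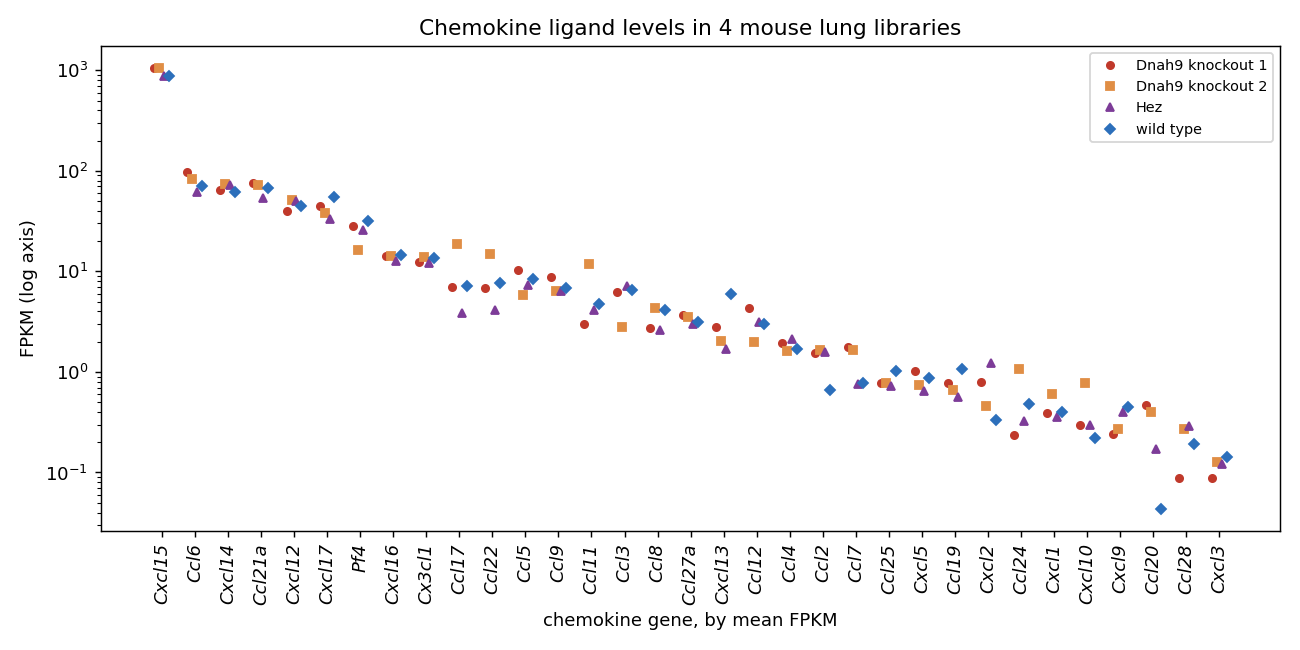
FPKM (log axis) of the 33 chemokine genes with at least 1 read in every library, ordered by mean FPKM; each marker is 1 library (2 Dnah9 knockout, 1 Hez, 1 wild type). Cxcl15 sits at 881 to 1055 FPKM, above every other member, and knockout library 2 lies above the other libraries for Ccl17, Ccl22, Ccl11 and Ccl24.

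In all, 7 members had at most 3 reads in every library. Ccl26 and Ccl21d had 0 reads in all 4 libraries, which allows up to 0.181 to 0.189 CPM per library (3 reads each). Cxcl11 and Ccl21b had 1 read in knockout library 1 only, and Ccl27b had 1 read in knockout library 2 only. Ccl21b and Ccl21d are near-identical copies of Ccl21a, and Ccl27b is a copy of Ccl27a, so how the authors' counting shared reads among these copies is uncertain. Ccl1, a ligand of Ccr8, had 0 and 2 reads in the knockout libraries, 1 in Hez and 0 in wild type. Xcl1, the C-class ligand that draws Xcr1-bearing dendritic cells, had 3 and 1 reads in the knockout libraries, 0 in Hez and 1 in wild type. These 7 members and Cxcl3, with 5 to 8 reads per library, did not pass the filter on low counts.

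Many of the genes lie in clusters. By chromosome, 12 members are on chromosome 11, 12 on chromosome 5, 6 on chromosome 4 and 4 on chromosome 8. Not all of these are in a cluster: Cxcl16, Ccl24 and Ccl25 lie far from the other members of their chromosome or most of them. Cxcl15 (ENSMUSG00000029375; chromosome 5, 90942393 to 90950926) and Cxcl2 (ENSMUSG00000058427; chromosome 5, 91051730 to 91053797) lie in the same CXC cluster, while Ccl22 (ENSMUSG00000031779; chromosome 8, 95472218 to 95478327) and Ccl17 (ENSMUSG00000031780; chromosome 8, 95537081 to 95538664) flank Cx3cl1, all on GRCm39. The table gives whole gene spans. The span of Cxcl10 overlaps Art3 on the other strand, as do those of Ccl25 with Elavl1, Ccl27a with Il11ra1 and Cxcl16 with Zmynd15. Whether the counting used strand is not stated in the labels or the table, so reads of such pairs may not be separated.

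RefSeq promoter windows, 250 bases before to 50 after the start on GRCm38.p6, were matched by symbol for 29 of the 40 members (35 windows). Of these, 4 are shown because they belong to the most abundant member, the scarce Cxcl2 of the same cluster, and the Ccr4 ligands Ccl17 and Ccl22, which were both highest in knockout library 2. They span chr5:90794284-90794583 (Cxcl15), chr5:90903649-90903948 (Cxcl2), chr8:94810203-94810502 (Ccl17) and chr8:94745434-94745733 (Ccl22), all on the plus strand. Capitals mark matches to the motifs that were searched on both strands: TATAAA, a kappaB-like motif (GGGA and TTCC with any 2 bases between), a STAT-like motif (TTC and GAA with any 4 bases between) and an interferon response-like motif (GAAA and GAAA with any 2 bases between).
Cxcl15: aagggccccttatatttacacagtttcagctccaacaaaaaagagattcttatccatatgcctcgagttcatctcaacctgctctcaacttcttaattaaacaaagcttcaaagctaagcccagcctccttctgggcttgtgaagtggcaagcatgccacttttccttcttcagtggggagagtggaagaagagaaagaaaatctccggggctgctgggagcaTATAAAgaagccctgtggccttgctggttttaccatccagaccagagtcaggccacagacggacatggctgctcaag
Cxcl2: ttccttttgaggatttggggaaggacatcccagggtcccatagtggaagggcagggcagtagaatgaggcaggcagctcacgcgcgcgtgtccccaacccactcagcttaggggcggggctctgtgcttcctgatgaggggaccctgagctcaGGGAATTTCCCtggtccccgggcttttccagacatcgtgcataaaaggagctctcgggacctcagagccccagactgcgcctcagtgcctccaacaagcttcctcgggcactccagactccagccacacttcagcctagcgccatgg
Ccl17: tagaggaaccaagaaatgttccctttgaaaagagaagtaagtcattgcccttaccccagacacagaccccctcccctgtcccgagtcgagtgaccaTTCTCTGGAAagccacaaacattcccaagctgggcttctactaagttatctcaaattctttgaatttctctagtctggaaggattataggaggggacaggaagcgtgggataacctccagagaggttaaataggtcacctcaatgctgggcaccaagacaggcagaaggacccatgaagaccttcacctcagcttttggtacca
Ccl22: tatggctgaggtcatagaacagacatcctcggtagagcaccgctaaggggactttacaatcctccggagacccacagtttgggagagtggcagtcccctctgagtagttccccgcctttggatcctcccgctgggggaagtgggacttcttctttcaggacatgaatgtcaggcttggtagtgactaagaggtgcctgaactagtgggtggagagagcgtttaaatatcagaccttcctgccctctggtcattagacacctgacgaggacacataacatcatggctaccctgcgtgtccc

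The Cxcl15 window holds TATAAA at position -27 relative to the start. TATAAA occurred in 13.6% of all 32851 RefSeq windows of this length and in those of 10 members. The Cxcl2 window holds the kappaB-like motif at position -97, overlapping a match on the other strand at position -96. This motif occurred in 1.47% of all windows and in those of Ccl1, Cxcl1, Cxcl2, Cxcl3 and Cxcl10. The Ccl17 window holds the STAT-like motif at position -154, which occurred in 6.95% of all windows and in no other member's window. The interferon response-like motif occurred in 3.44% of all windows and in those of Ccl19, Cxcl10 and Cxcl14. The Ccl22 window holds none of these letter strings, and a match or its absence shows nothing about binding.

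The comparison of knockout with wild type asks which genes differ when Dnah9 is knocked out. Of 40 members, 32 passed the filter on low counts (edgeR filterByExpr). None of the 32 passed an adjusted p of 0.05 in the edgeR quasi-likelihood test, against 8 of 15055 genes tested (0.0531%). Dnah9 itself was among those 8 (log2 fold -1.88, SE 0.145, edgeR adjusted p = 0.00864). At an unadjusted p below 0.05 there were 2 members higher in knockout (Cxcl15 and Ccl6, against 1.81% of all genes) and 2 lower (Cxcl13 and Cxcl17, against 3.37%). DESeq2 and limma-voom also called 0 members, with 2 and 4 at an unadjusted p below 0.05, against 186 and 821 of 15055 genes. Log2 folds were positive for 20 of the 32, against 51.1% of all genes, with a median of 0.12 over the tested members and 0.0045 over all genes.

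**Figure D2:**
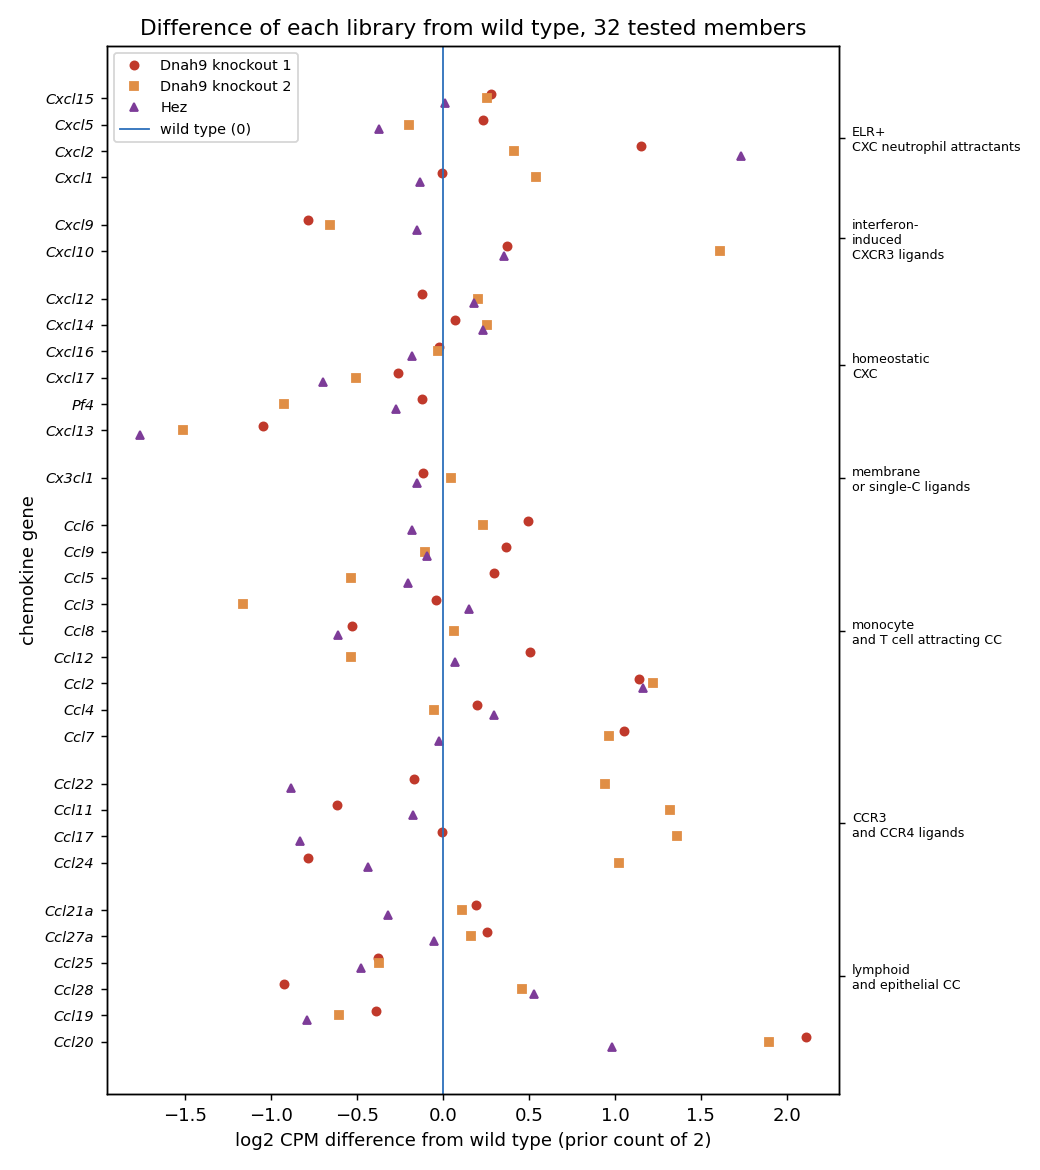
Log2 CPM difference from wild type (horizontal axis, prior count of 2) of the 2 Dnah9 knockout libraries and the Hez library for the 32 tested chemokine genes, grouped by role. Both knockout libraries lie near 0.27 for Cxcl15, and the knockout libraries lie on opposite sides of wild type for Ccl11 and Ccl24.

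The 5 neutrophil attractants with the ELR motif were dominated by Cxcl15. It had 2260 and 2228 CPM in the knockout libraries, 1882 in Hez and 1863 in wild type. Both knockout libraries lay above both others, and the counting intervals of the knockout libraries did not reach those of the others. The log2 fold was 0.27 against wild type (SE 0.0638, edgeR adjusted p = 0.445) and 0.25 against Hez (SE 0.0638, edgeR adjusted p = 0.717). Alveolar type 2 markers lay on the same side: all 8 had positive log2 folds against wild type (median 0.21), against 51.1% of all genes. In edgeR 0 of these markers passed the threshold and 6 were higher at an unadjusted p below 0.05 (1.81% of all genes were). Their summed level was 28978 and 27442 CPM in knockout, 25368 in Hez and 24694 in wild type, and their part in the Cxcl15 values was not tested.

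The remaining ELR members were scarce. Cxcl2, an inducible neutrophil chemokine of macrophages, had 27 and 15 reads in the knockout libraries, 42 in Hez and 11 in wild type. Cxcl1 had 12 and 18 reads in knockout, 11 in Hez and 12 in wild type. Cxcl5, an epithelial neutrophil attractant, had 31 and 22 reads in knockout, 20 in Hez and 26 in wild type. Cxcl2 was lowest in wild type and highest in Hez, Cxcl1 was highest in knockout library 2, and the knockout values of Cxcl5 overlapped the others.

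Cxcr3 ligands, which recruit activated T cells after interferon, were scarce. Cxcl10 had 11 and 28 reads in the knockout libraries, 11 in Hez and 8 in wild type. Cxcl9 had 12 and 13 reads in knockout, 20 in Hez and 22 in wild type. The 2 genes thus lay on opposite sides. The 13 interferon-stimulated genes that are not chemokines had a median log2 fold of 0.11 against wild type. Of these 11 were positive, against 51.1% of all genes. In edgeR 0 passed the threshold and 0 had an unadjusted p below 0.05.

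Among homeostatic CXC ligands, Cxcl12, the Cxcr4 ligand that retains progenitors and lymphocytes, had 332 and 416 CPM in the knockout libraries, 410 in Hez and 361 in wild type. The knockout libraries spanned the other libraries, and the log2 fold against wild type was 0.05 (SE 0.132, edgeR adjusted p = 0.996). Cxcl14, made by epithelium and fibroblasts, had 118 and 135 CPM in knockout, 132 in Hez and 113 in wild type (log2 fold 0.17 against wild type, SE 0.116, edgeR adjusted p = 0.996). Cxcl16, a membrane-anchored ligand of Cxcr6, had 43.1 and 43.0 CPM in knockout, 38.7 in Hez and 43.8 in wild type (log2 fold -0.03, SE 0.121, edgeR adjusted p = 0.996). Cx3cl1, or fractalkine, the membrane-bound ligand of Cx3cr1, is of the CX3C class and not a CXC ligand. It had 48.8 and 54.6 CPM in knockout, 47.7 in Hez and 52.8 in wild type (log2 fold -0.03, SE 0.120, edgeR adjusted p = 0.996). For these 4 genes no library differed from wild type by more than 0.26 on the log2 CPM scale.

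Cxcl17, a mucosal chemokine of airway epithelium, was highest in wild type. It had 34.2 and 28.9 CPM in the knockout libraries, 25.3 in Hez and 41.1 in wild type. The log2 fold was -0.38 against wild type (SE 0.154, edgeR adjusted p = 0.908) and 0.32 against Hez (SE 0.160, edgeR unadjusted p = 0.0796), with the knockout libraries between Hez and wild type. Club and secretory cell markers had the same order for wild type: their summed level was 17036 and 14210 CPM in knockout, 15704 in Hez and 20408 in wild type. Against wild type all 6 had negative log2 folds, as did 7365 of all 15055 genes tested. The threshold was passed by 0.0531% of all genes and by 3 of these markers (Scgb3a1, Scgb3a2 and Bpifa1). Their part in the Cxcl17 values was not tested.

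Cxcl13, which draws B cells into follicles through Cxcr5, had the largest negative fold against wild type among members with a mean of 1 CPM or more. It had 3.26 and 2.33 CPM in the knockout libraries, 1.94 in Hez and 6.85 in wild type. All 3 other libraries lay below wild type. The log2 fold was -1.29 against wild type (SE 0.381, edgeR unadjusted p = 0.00943, adjusted p = 0.632) and 0.53 against Hez (SE 0.439, edgeR unadjusted p = 0.263). B cell markers lay on the other side: all 6 had positive log2 folds against wild type (median 0.44), against 51.1% of all genes. In edgeR 0 of these markers passed the threshold and 1 was higher at an unadjusted p below 0.05 (1.81% of all genes were). The sum of these markers was 202 and 148 CPM in knockout, 134 in Hez and 134 in wild type. Their part in the Cxcl13 values was not tested.

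Pf4, platelet factor 4, a chemokine of platelet granules, had 20.7 and 11.8 CPM in the knockout libraries, 18.6 in Hez and 22.5 in wild type. Knockout library 2 was the low one. Platelet and megakaryocyte markers were low in the same library, with summed levels of 138 and 42.8 CPM in knockout, 108 in Hez and 109 in wild type. Of the 6 listed markers Gp1bb had 0 reads in all libraries, and Ppbp, itself a platelet CXC chemokine that the naming rule leaves out, stood at 71.3 and 17.7 CPM in knockout, 54.9 in Hez and 54.4 in wild type. The log2 fold of Pf4 against wild type was -0.47 (SE 0.292, edgeR adjusted p = 0.996), and the part of these markers in it was not tested.

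**Figure D3:**
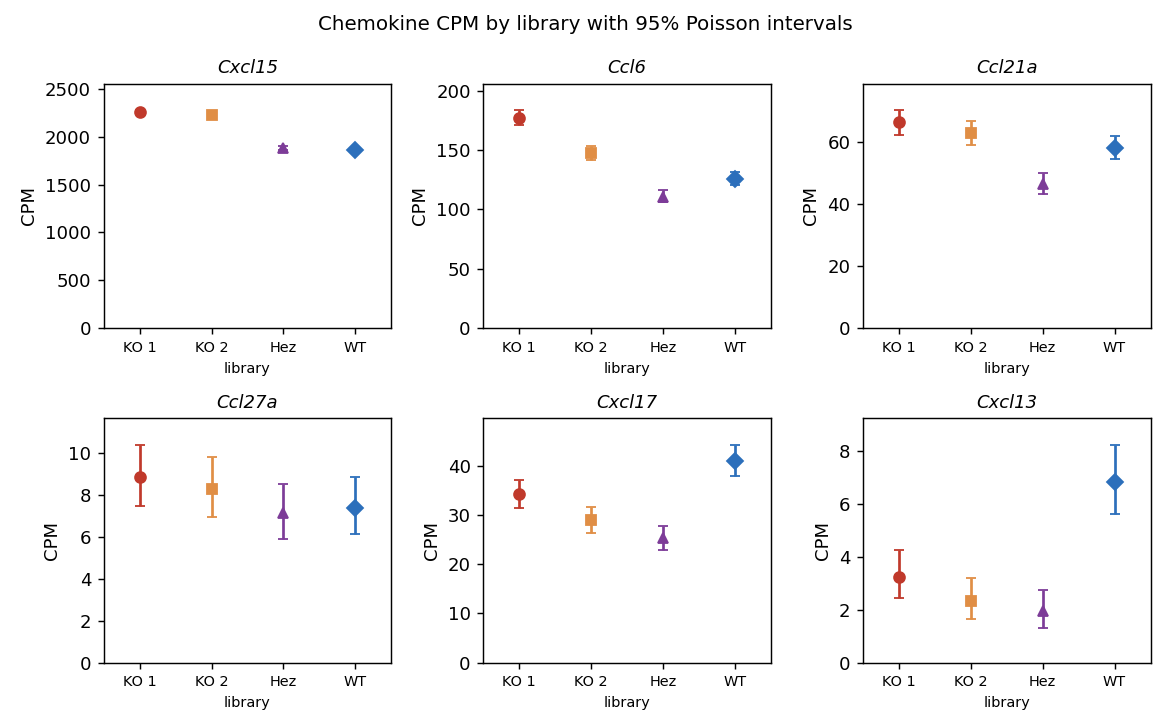
CPM of 6 chemokine genes in each library (KO, Dnah9 knockout; WT, wild type), with 95% exact Poisson intervals that cover counting error only. Cxcl15 and Ccl6 are higher in both knockout libraries than in Hez and wild type, while Cxcl17 and Cxcl13 are highest in wild type.

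Of the 9 CC ligands that attract monocytes and T cells, Ccl6 was the most abundant. Ccl6, a mouse chemokine made by macrophages and other myeloid cells, had 178 and 148 CPM in the knockout libraries, 111 in Hez and 126 in wild type. Both knockout libraries lay above both others. The log2 fold was 0.37 against wild type (SE 0.131, edgeR adjusted p = 0.812) and 0.55 against Hez (SE 0.132, edgeR unadjusted p = 0.00303, adjusted p = 0.705). Alveolar macrophage markers lay on the same side, with positive folds for all 7 against wild type (median 0.17), where 51.1% of all genes were positive. In edgeR 0 of these markers passed the threshold and 1 was higher at an unadjusted p below 0.05 (1.81% of all genes were). Their sum was 979 and 1305 CPM in knockout, 737 in Hez and 753 in wild type. Chil3 made up most of this, and without it, a choice made after its values were seen, the sum was 267 and 287 CPM in knockout, 213 in Hez and 244 in wild type. Their part in the Ccl6 values was not tested.

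Ccl9, a related myeloid chemokine and ligand of Ccr1, had 26.8 and 19.3 CPM in the knockout libraries, 19.4 in Hez and 20.7 in wild type. Only knockout library 1 was above the others (log2 fold 0.15 against wild type, SE 0.221, edgeR adjusted p = 0.996). Ccl2, the main monocyte attractant acting on Ccr2, had 29 and 30 reads in knockout, 30 in Hez and 12 in wild type. Wild type was the low library, and the log2 fold was 1.30 against wild type (SE 0.624, edgeR unadjusted p = 0.0707, adjusted p = 0.996) and 0.02 against Hez (SE 0.545, edgeR unadjusted p = 0.978). Ccl7, also a Ccr2 ligand, had 23 and 21 reads in knockout, 10 in Hez and 10 in wild type. Both knockout libraries lay above both others. Ccl7 is singled out after its values were seen.

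Ccl5, a T cell attractant made by T and NK cells, had 9.96 and 5.54 CPM in the knockout libraries, 7.02 in Hez and 8.08 in wild type. Ccl3, a macrophage inflammatory protein, had 4.79 and 2.14 CPM in knockout, 5.50 in Hez and 4.94 in wild type. Knockout library 2 was the lowest for both. T and NK cell markers summed to 63.9 and 46.1 CPM in knockout, 52.6 in Hez and 47.1 in wild type, and their part in the Ccl5 values was not tested. Ccl4, Ccl8 and Ccl12 had between 17 and 38 reads in every library, with knockout values that overlapped those of Hez and wild type.

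The ligands of Ccr3 and Ccr4 varied most between the knockout libraries. Ccl22, which macrophages and dendritic cells make to draw Ccr4-bearing T cells, had 15.9 and 34.4 CPM in knockout libraries 1 and 2, 9.62 in Hez and 17.8 in wild type. Ccl17, the other Ccr4 ligand, had 3.63 and 9.56 CPM in knockout, 2.00 in Hez and 3.64 in wild type. Knockout library 2 was highest and Hez lowest for both, and knockout library 1 lay close to wild type.

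Against wild type the log2 fold of Ccl22 was 0.49 (SE 0.387, edgeR adjusted p = 0.996) and that of Ccl17 was 0.85 (SE 0.560, edgeR adjusted p = 0.996). With knockout library 1 left out these were 0.95 and 1.39, and with library 2 left out they were -0.17 and -0.01, as values with no test. Against Hez the log2 folds were 1.38 for Ccl22 (SE 0.415, edgeR unadjusted p = 0.0103, adjusted p = 0.865) and 1.72 for Ccl17 (SE 0.607, edgeR unadjusted p = 0.0221, adjusted p = 0.970). Dendritic cell markers were summed at 504 and 550 CPM in knockout, 427 in Hez and 450 in wild type. Of the 7, 5 had positive and 2 negative log2 folds against wild type (median 0.07), where 51.1% of all genes were positive. Itgax, H2-Ab1 and Cd209a were higher than in wild type at an unadjusted edgeR p below 0.05, as were 1.81% of all genes. Of the 7 markers 0 passed the threshold. Their part in the Ccl17 and Ccl22 values was not tested.

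Ccl11 and Ccl24, the eotaxins that bring in eosinophils through Ccr3, are described here because knockout library 2 stood apart, a choice made after their values were seen. Ccl11 had 53 and 204 reads in knockout libraries 1 and 2, 74 in Hez and 82 in wild type. In CPM this was 3.26 and 12.8 in knockout, 4.48 in Hez and 5.06 in wild type. Ccl24 had 5 and 22 reads in knockout, 7 in Hez and 10 in wild type. For both genes knockout library 1 was the lowest and library 2 the highest of the 4. The log2 fold of Ccl11 against wild type was 0.67 (SE 0.668, edgeR adjusted p = 0.996). Markers of fibroblasts, a known source of Ccl11, summed to 2166 and 2126 CPM in knockout, 2000 in Hez and 2399 in wild type, and their part in the Ccl11 values was not tested.

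**Figure D4:**
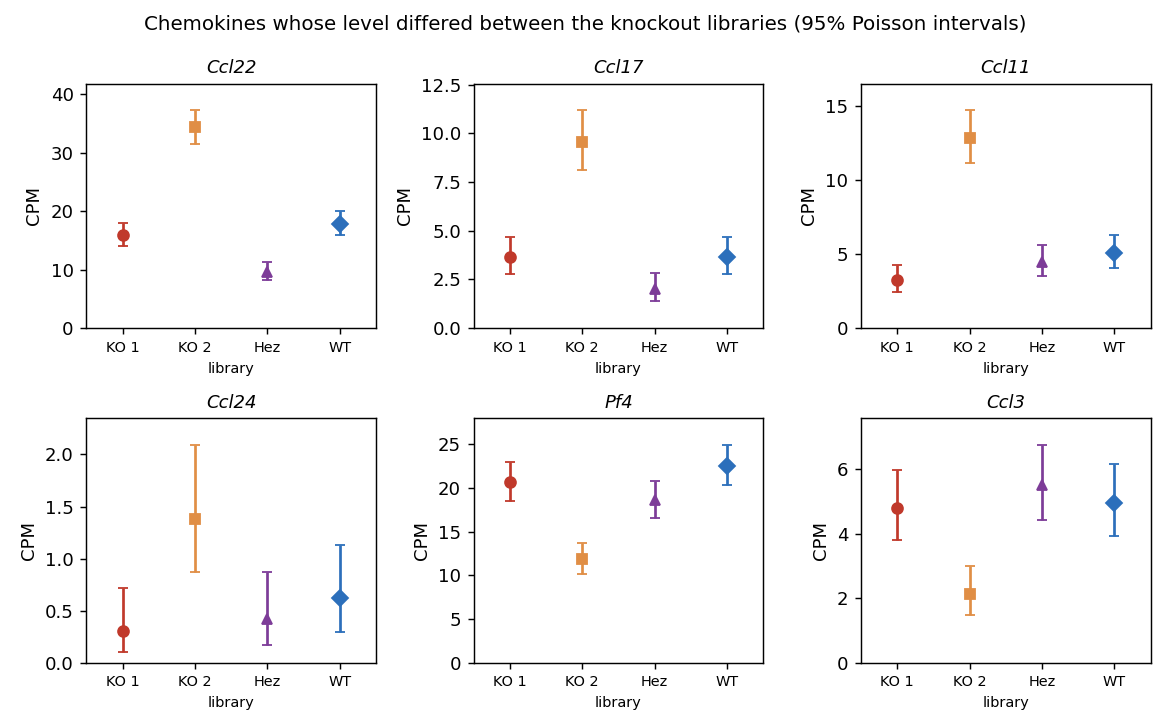
CPM of 6 chemokine genes in each library with 95% exact Poisson intervals (KO, Dnah9 knockout; WT, wild type). Knockout library 2 is above the other libraries for Ccl22, Ccl17, Ccl11 and Ccl24 and below them for Pf4 and Ccl3.

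Across members with a mean of 1 CPM or more, 6 of 26 differed by at least 1 on the log2 scale between the knockout libraries (Ccl11, Ccl17, Ccl22, Ccl3, Ccl12 and Ccl28), against 2.21% of all 14125 genes at that level. At 5 CPM or more these were 2 of 15 (Ccl11 and Ccl22), against 0.811% of 12085 genes. Hez and wild type differed by that much for 3 of 26 members (Ccl2, Cxcl2 and Cxcl13), against 1.55%, and for 0 of 15, against 0.414%. At these levels low counts add to the spread, and the thresholds were chosen after the values were seen.

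Of the lymphoid and epithelial CC ligands, Ccl21a, which lymphatic endothelium displays to Ccr7-bearing T and dendritic cells, had 66.3 and 62.8 CPM in the knockout libraries, 46.5 in Hez and 58.1 in wild type. Hez was the low library. The log2 fold was 0.15 against wild type (SE 0.108, edgeR adjusted p = 0.996) and 0.47 against Hez (SE 0.110, edgeR unadjusted p = 0.00263, adjusted p = 0.650), the smallest p of any member in the comparison with Hez. Lymphatic endothelial markers summed to 475 and 382 CPM in knockout, 404 in Hez and 406 in wild type.

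Ccl27a, an epithelial ligand of Ccr10, had 8.85 and 8.30 CPM in the knockout libraries, 7.14 in Hez and 7.41 in wild type. Ccl25, the Ccr9 ligand, had 5.78 and 5.79 CPM in knockout, 5.38 in Hez and 7.53 in wild type. For Ccl27a both knockout libraries lay above the others, within overlapping counting intervals (log2 fold 0.21 against wild type, SE 0.262, edgeR adjusted p = 0.996). For Ccl25 wild type was highest (log2 fold -0.38, SE 0.286, edgeR adjusted p = 0.996). Ccl20, the Ccr6 ligand of mucosal epithelium, had 11 and 9 reads in knockout, 4 in Hez and 1 in wild type. Ccl19, a Ccr7 ligand, had 8 to 15 reads and Ccl28, a mucosal Ccr10 ligand, had 7 to 23 reads per library, with knockout values overlapping the others.

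Against Hez, 0 of 32 members passed an adjusted p of 0.05 in edgeR, against 1 of 15055 genes (0.00664%). Dnah9 itself did not pass there (log2 fold -0.73, SE 0.152, edgeR adjusted p = 0.599). At an unadjusted p below 0.05 there were 5 members higher in knockout (Ccl21a, Ccl6, Cxcl15, Ccl22 and Ccl17, against 2.5% of all genes) and 0 lower (against 2.11%). DESeq2 and limma-voom called 0 members, each with 4 at an unadjusted p below 0.05, against 164 and 691 of 15055 genes. Log2 folds were positive for 24 of the 32, against 52.5% of all genes, with medians of 0.26 and 0.0099. This comparison and that with wild type use the same knockout libraries.

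With wild type and Hez as 1 group, 31 members were tested in 2 groups. Of these 0 passed an adjusted p of 0.05 in edgeR, against 2 of 14674 genes (0.0136%). Nor did Dnah9 itself pass (log2 fold -1.42, SE 0.326, edgeR adjusted p = 0.627). A count of 0 members, here or against Hez alone, thus does not show that chemokines were unchanged. At an unadjusted p below 0.05 there were 5 members higher in knockout (Cxcl15, Ccl6, Ccl21a, Ccl17 and Ccl7, against 2.3% of all genes) and 0 lower (against 2.75%). DESeq2 and limma-voom called 0 members, with 4 and 3 at an unadjusted p below 0.05, against 424 and 726 of 14674 genes. Log2 folds were positive for 20 of the 31, against 49.1% of all genes. The log2 fold was 0.26 for Cxcl15 (SE 0.0598, edgeR adjusted p = 0.627) and 0.46 for Ccl6 (SE 0.108, edgeR adjusted p = 0.632). It was 0.30 for Ccl21a (SE 0.112, edgeR adjusted p = 0.957) and 1.22 for Ccl17 (SE 0.492, edgeR adjusted p = 0.975). With DESeq2, Ccl6 had the smallest adjusted p of the members, 0.0846.

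Leaving out a knockout library changed what was called in this comparison. Without knockout library 1, so that library 2 alone was set against Hez and wild type, Ccl11 and Ccl22 passed in edgeR (log2 folds of 1.42 and 1.32, SE 0.266 and 0.253, adjusted p = 0.0296 and 0.0338), where 107 of 14971 genes did (0.715%). Ccl17 had a log2 fold of 1.76 there (SE 0.369, edgeR adjusted p = 0.0576). Without knockout library 2, 0 members passed, against 24 of 14988 genes (0.16%), and the log2 fold of Ccl11 was -0.55 (SE 0.376, edgeR adjusted p = 0.975). The lone knockout library is assumed there to vary like the other group. That group's spread is the difference between Hez and wild type, so genotype and library variation cannot be told apart in it. Counted by position, both knockout libraries lay above Hez and wild type for 7 of 32 members (Cxcl15, Ccl6, Ccl21a, Ccl27a, Ccl7, Cxcl10 and Ccl20), against 17.5% of all genes. They lay below both for 2 (Ccl3 and Cxcl9), against 16.3%.

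Hez was set against wild type with no test, since each has 1 library. Among 15 members at a mean of 5 CPM or more, 2 were lower in Hez by at least 0.5 on the log2 CPM scale, against 3.79% of 12085 genes, and 0 were higher by that much, against 0.985%. These were Ccl22, at 9.62 CPM in Hez and 17.8 in wild type (-0.88), and Cxcl17, at 25.3 in Hez and 41.1 in wild type (-0.70). Ccl25 followed at -0.47. On the higher side were Cxcl14 (0.23), Cxcl12 (0.18) and Cxcl15 (0.01). Below that level, where counts are low, Cxcl13 stood at -1.76, Cxcl2 at 1.73 and Ccl2 at 1.17.

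Leukocytes answer these ligands through their receptors. Of 19 signalling receptors, 18 were tested and 0 passed the threshold against wild type in edgeR. Log2 folds were positive for 13 (median 0.20), against 51.1% of all genes. Against 1.81% of all genes, 1 receptor was higher at an unadjusted edgeR p below 0.05. That receptor was Ccr7, which guides cells toward Ccl19 and Ccl21a, with 310 and 288 reads in the knockout libraries, 204 in Hez and 205 in wild type. Both knockout libraries lay above the others, and the log2 fold was 0.55 against wild type (SE 0.194, edgeR adjusted p = 0.812).

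Ccr2, the receptor of Ccl2, Ccl7 and Ccl12, had 1268 and 1005 reads in knockout, 862 in Hez and 931 in wild type, and Cx3cr1, the receptor of Cx3cl1, had 332 and 366 in knockout, 270 in Hez and 275 in wild type. For both receptors, too, the knockout libraries lay above the others, with log2 folds of 0.30 for Ccr2 and 0.36 for Cx3cr1 against wild type, neither past the threshold.

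Some receptors were scarce or differed between the knockout libraries. They were named after their values were seen. Ccr3, the eotaxin receptor, had 65 and 116 reads in knockout libraries 1 and 2, 70 in Hez and 54 in wild type. Ccr8, a receptor of regulatory and type 2 helper T cells, had 6 and 28 reads in knockout, 9 in Hez and 5 in wild type. Ccr4, the receptor of Ccl17 and Ccl22, had 9 and 3 reads in knockout, 7 in Hez and 7 in wild type, and did not pass the filter. Knockout library 2 was the highest for Ccr3 and Ccr8 and the lowest for Ccr4. Cxcr2, the neutrophil receptor of the ELR ligands, had 507 and 127 reads in knockout, 267 in Hez and 242 in wild type. The knockout libraries spanned the others, as did the neutrophil markers given above, of which Cxcr2 is 1.

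**Figure D5:**
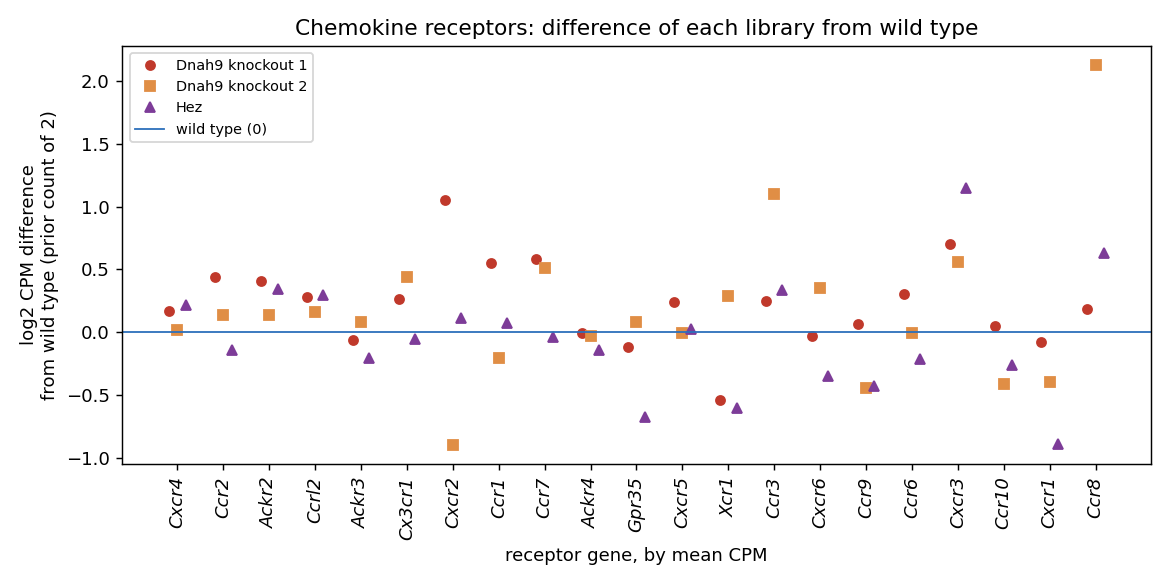
Log2 CPM difference from wild type (vertical axis, prior count of 2) of the 2 Dnah9 knockout libraries and the Hez library for tested signalling and atypical chemokine receptor genes, ordered by mean CPM. Ccr7 is higher in both knockout libraries, and Cxcr2 lies above wild type in knockout library 1 and below it in library 2.

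Atypical receptors, which bind chemokines without G protein signalling, gave 4 tested genes of 5 (Ackr1 had 2 to 7 reads), with 0 past the threshold and 0 at an unadjusted p below 0.05 in edgeR. Ackr2, a scavenger of inflammatory CC chemokines, had 1049 and 846 reads in knockout, 1019 in Hez and 785 in wild type. Ackr3, which takes up Cxcl12, had 489 and 528 in knockout, 450 in Hez and 507 in wild type. Of 9 proteases and binding partners that trim or hold chemokines, 0 passed in edgeR. At an unadjusted p below 0.05, 1 was higher against wild type, where 1.81% of all genes were. It was the macrophage elastase gene Mmp12 (126 and 163 reads in knockout, 92 in Hez and 88 in wild type).

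Genes that share inducers with chemokines gave mixed values. Of 14 NF-kappaB targets and inducers, 0 passed in edgeR. At an unadjusted p below 0.05, 5 were higher against wild type (1.81% of all genes were) and 1 was lower (3.37% of all genes were). The lower one was Tnf, a cytokine that induces chemokines, with 53 and 50 reads in knockout, 110 in Hez and 109 in wild type (log2 fold -1.07, edgeR adjusted p = 0.653). The higher ones with the smallest p were Relb, an NF-kappaB subunit (log2 fold 0.49), and the adhesion molecules Vcam1 (0.29) and Icam1 (0.32).

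All 11 immediate early genes had positive log2 folds against wild type (median 0.91), against 51.1% of all genes. The threshold was passed by 0.0531% of all genes and by 1 of this list (Zfp36). At an unadjusted edgeR p below 0.05, 1.81% of all genes were higher, and 8 of the immediate early genes were. Such genes are switched on quickly by stimuli, dissection included, and Cxcl1, Cxcl2 and Ccl2 can be induced alongside them. The summed level of the list was 1278 and 1776 CPM in knockout, 1335 in Hez and 860 in wild type. Wild type was thus the lowest library for this list, as it was for Ccl2 and Cxcl2. Cxcl1 had 12 reads in wild type, 12 in knockout library 1 and 11 in Hez, too close to order these libraries. The part of such a response in the chemokine values was not tested.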

How the data were processed

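Lung RNA libraries were prepared with Illumina's TruSeq kit for HiSeq sequencing, per the labels' protocols. Read counts and FPKM values per gene were deposited for 4 libraries, per the file headers. All 66024 FPKM values above 0 equal the count divided by library total and gene length (relative tolerance 1e-06). Coordinates are on GRCm39, as named in the submitters' processing notes. Aligner, counter and annotation release: not given in the sources used here.

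Counts were filtered with filterByExpr (minimum count 10), scaled by TMM (factors 0.993 to 1.01) and tested two-sided with the quasi-likelihood test of edgeR 4.0.16 under R 4.3.3, with Benjamini-Hochberg adjustment over all genes tested. Knockout was set against wild type and against Hez with 3 groups (1 residual degree of freedom), and against both together with 2 groups (2 residual degrees of freedom). Wild type and Hez are single libraries, so the tests with each draw their spread from the knockout pair, moderated over all genes. The test with both together also counts the difference between Hez and wild type as spread. Standard errors are the log2 fold divided by the square root of F. CPM uses TMM-scaled totals, with exact Poisson intervals (95%). Hez against wild type was described as a difference of log2 CPM (prior count 2). Every pair of libraries differed by more than counting noise (chi-square per gene from 8.00 to 11.7, over genes with at least 10 reads in the pair together). The value was 9.96 for the knockout pair and 8.08 for Hez with wild type. Knockout library 1 stood at 8.00 with Hez and 8.42 with wild type, and library 2 at 10.8 and 11.7. The knockout libraries were thus not closer to each other than library 1 was to Hez or wild type.

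The members, lists and tests were chosen with earlier results of these data known. Members given in full were the 12 with the highest mean CPM, the 5 with the smallest p per comparison at 1 CPM or more, any past the threshold, and the 3 largest Hez differences per direction at 5 CPM or more, 16 in all. Of each list of other genes, up to 4 with the smallest p were to be named, and 1 gene is counted but not reported here. Ccl21d was placed with its copies after the table was seen. Alternatives were DESeq2 1.42.0, limma-voom (limma 3.58.1), other scalings and filters, and each library left out.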

Additional observations from a re-analysis of the deposited data

How the results depend on the processing

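Of 449 alternative values for single chemokines, 23 changed sign, all with 1 library left out, and 1 passed the threshold. The count of genes called against wild type, 8, was 4 with no filter, 4 with a mean of at least 10 CPM and 14 with the DESeq2 Wald test. Against Hez it was 1, and 7 with the DESeq2 Wald test. With wild type and Hez together it was 2, and 1 with a mean of at least 10 CPM, 22 with the DESeq2 Wald test and 1 with limma-voom. With 1 library left out it ranged from 1 to 107. The causes were not tested.

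With 1 knockout library left out, 5 values against wild type changed sign (Cxcl12 at -0.12, Cx3cl1 at 0.048, Ccl17 at -0.0057, Ccl22 at -0.17 and Ccl9 at -0.11), as did 5 against Hez (Cxcl14 at 0.020, Cxcl12 at 0.016, Pf4 at 0.15, Ccl9 at -0.017 and Ccl2 at -0.026). In the comparison with both together 13 changed sign, some with a knockout library left out and some with Hez or wild type left out. Over all of these fits the log2 folds ranged from -0.069 to 0.17 for Cxcl14, -0.22 to 0.11 for Cxcl12 and -0.38 to 0.32 for Cxcl17. They ranged from -0.80 to 0.0049 for Pf4, -0.026 to 0.15 for Cxcl16 and -0.043 to 0.12 for Cx3cl1. For Ccl9 they were -0.063 to 0.42, for Cxcl13 -1.29 to 0.52 and for Ccl25 -0.38 to 0.10. Leaving out knockout library 1 took Ccl22 past the threshold (adjusted p = 0.0338 in edgeR). Leaving out a knockout library in the comparisons with wild type or Hez alone left 1 library per group and gave values with no test and no counts of calls. No paired analysis was possible because wild type and Hez have 1 library each. The single wild type and Hez libraries and read counts under 50 for many inflammatory members limit the precision.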
